A study of Mus musculus with 10 samples.

Results

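The genes that write, copy and remove DNA methylation in mouse embryonic stem (ES) cells were followed in cultures treated with MB-3, a small molecule described as an inhibitor of the histone acetyltransferase Kat2a (also called Gcn5). The group was set by name, with earlier results of these data known. It holds 9 genes of the 30677 in the count table: the methyltransferase genes Dnmt1, Dnmt3a, Dnmt3b and Dnmt3l, the Dnmt1 partner Uhrf1, the dioxygenase genes Tet1, Tet2 and Tet3, and the glycosylase gene Tdg. Each was matched by its symbol to an Ensembl row, and 9 of 9 passed the filter on low counts that left 20027 genes for testing.

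All samples were TNGA cells, a single mouse ES cell line with a green fluorescent protein reporter in 1 Nanog allele, grown in serum with leukaemia inhibitory factor. RNA-seq covered 3 DMSO cultures (replicates A, B and C, vehicle only) and 3 MB-3 cultures (replicates A, B and C, 100 μM MB-3), all treated for 48 hours and all with a final 0.1% of DMSO. Where 3 values are given for a group, they run from replicate A to C. Totals ran from 46863700 counts in DMSO replicate C to 51137896 in DMSO replicate B, and from 42270312 in MB-3 replicate C to 49334434 in MB-3 replicate A. H3K9ac ChIP-seq added 1 peak list for DMSO and 1 for MB-3, each made from merged duplicates. The labels do not say whether replicates were grown from separate thaws or passages, so p-values measure the spread between these cultures and no more.

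In mammals, methyl groups are placed on the cytosine of CG dinucleotides. Dnmt3a and Dnmt3b set new marks, helped by Dnmt3l, which has no catalytic activity of its own, while Dnmt1 copies marks to the new strand after replication with the help of Uhrf1, which recognises hemimethylated sites. Tet enzymes oxidise methylcytosine, and Tdg excises the later oxidation products so that base excision repair can restore cytosine. ES cells in serum are known for high Dnmt3b, Dnmt3l and Tet1 and for low Tet3.

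The sequences before the starts of Dnmt3a and Dnmt3b are shown first, since these were the members whose transcripts rose under both ways of fitting the data. They are RefSeq windows on GRCm38.p6 from 250 to 21 bases before a transcription start, on the plus strand and 5′ to 3′, with every CG, the dinucleotide that these enzymes methylate, in capitals. RefSeq gives Dnmt3a 2 upstream starts with overlapping windows, of which the first is printed. It lies at chr12:3806730-3806959, the internal Dnmt3a window, before the start of a shorter transcript, at chr12:3891494-3891723, and the Dnmt3b window at chr2:153649199-153649428.
Dnmt3a, first upstream start: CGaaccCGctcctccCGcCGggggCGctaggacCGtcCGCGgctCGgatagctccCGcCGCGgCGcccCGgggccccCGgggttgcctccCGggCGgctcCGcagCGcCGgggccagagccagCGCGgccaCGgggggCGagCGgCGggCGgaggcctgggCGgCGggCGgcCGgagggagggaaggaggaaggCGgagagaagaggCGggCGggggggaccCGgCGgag
Dnmt3a, internal start: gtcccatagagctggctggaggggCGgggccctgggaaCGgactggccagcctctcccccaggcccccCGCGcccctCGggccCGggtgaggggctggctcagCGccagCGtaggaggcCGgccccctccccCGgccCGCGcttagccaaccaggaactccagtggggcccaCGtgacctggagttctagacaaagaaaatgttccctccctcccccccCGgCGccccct
Dnmt3b: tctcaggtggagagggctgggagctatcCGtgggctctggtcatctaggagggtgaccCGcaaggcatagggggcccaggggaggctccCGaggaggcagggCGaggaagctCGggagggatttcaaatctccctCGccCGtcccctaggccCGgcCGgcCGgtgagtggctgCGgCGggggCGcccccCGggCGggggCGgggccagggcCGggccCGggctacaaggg

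The printed upstream Dnmt3a window held 36 CG dinucleotides, the other upstream one, at chr12:3806910-3807139, 38, the internal one 15 and the Dnmt3b window 18, against a median of 5 over the 32851 RefSeq windows of the same length. RefSeq gives the 9 genes 16 starts, of which 11 had more CG than that median. The highest count was before Tet2, with 48, a number reached by 0.067% of all windows. The lowest were 2 before a Dnmt1 start and 2 before a Dnmt3l start. The letters CACGTG, a palindrome and so the same on both strands, stood in 3 of the 16 windows (the internal Dnmt3a start, a Dnmt3l start and Tdg) and in 5.35% of all windows. Gene-level counts do not say from which start a transcript came.

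The labelled cell type was checked against its markers. Pou5f1, a transcription factor that these cells depend on, had counts normalized to library size (CPM) of 672 ± 35.4 in DMSO (SD, n = 3) and of 676 ± 35.1 with MB-3. The 10 ES cell markers summed to 5116, 5387 and 4794 CPM in the DMSO cultures and to 4893, 5200 and 4983 CPM in the MB-3 cultures, with Dppa5a the most abundant. The 6 extraembryonic endoderm markers summed to at most 11.9 CPM in any library, and 4 of them, Gata6, Sox17, Foxa2 and Sox7, stayed below 1 CPM in every library.

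With treatment as the only term, edgeR called 2 of the 9 members at a Benjamini-Hochberg adjusted p below 0.05, Dnmt3a and Dnmt3b, both higher with MB-3. Of all 20027 genes tested, 41 were called, which is 0.205%, and 0.0999% were called higher. With the replicate letter as a block, 5 of 9 members were called, all of them higher (Dnmt3a, Dnmt3b, Dnmt3l, Tet1 and Tet2), against 7.12% of all genes called and 3.22% called higher. None of the 9 was called lower in either fit, beside 0.105% and 3.9% of all genes. DESeq2 called the same 2 members without the block (1.11% of all genes) and 4 with it (3.79% of all genes), Dnmt3l being the one left out. The rises were small, from 14.3% for Dnmt3l to 26.3% for Dnmt3a in the blocked fit. MB-3 stood above DMSO in every letter for 7 of 9 members, compared with 20.3% of all genes, and Tet3 and Tdg were the other 2. The median log2 fold change of the 9 members was 0.19, beside -0.0011 over all genes tested. As the members were chosen with earlier results of these data known, these shares are a description and not a test. In bulk RNA, a change in the number of expressing cells and a change in RNA per cell cannot be told apart.

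**Figure D1:**
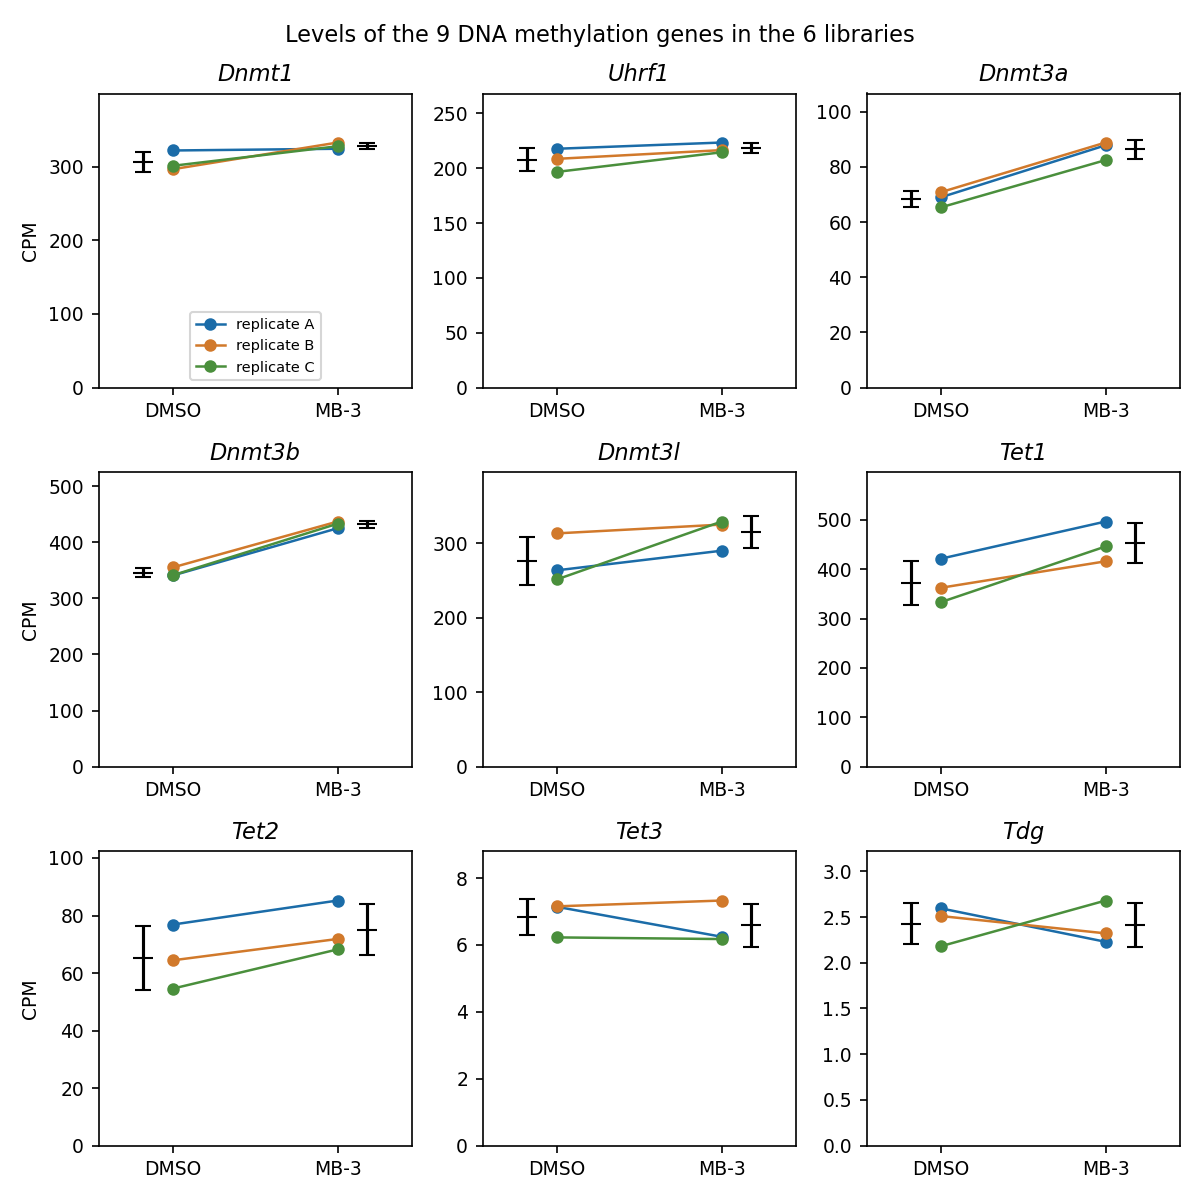
Each panel plots the CPM of a member gene (y axis, from 0) in DMSO and MB-3, with lines joining cultures of the same replicate letter and black bars giving mean ± SD of 3 cultures. For Dnmt3a and Dnmt3b all 3 MB-3 cultures lie above all 3 DMSO cultures, while for Tet1 and Tet2 the lines run upwards from starting levels that differ between letters.

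Dnmt3a (ENSMUSG00000020661, chr12:3806007-3914443 on GRCm38, plus strand) encodes a de novo methyltransferase. It stood at 69.0, 70.8 and 65.3 CPM in the DMSO cultures and at 87.8, 88.8 and 82.5 CPM in the MB-3 cultures. The MB-3 cultures all lay above the DMSO cultures, with replicate C the lowest of its group both times. Its log2 fold change was 0.34 with a standard error of 0.058 (edgeR, Benjamini-Hochberg adjusted p = 0.0485), or 0.34 with an adjusted p of 7.87e-06 in the blocked edgeR fit. By letter, the log2 ratio of MB-3 to DMSO was 0.35 in A, 0.33 in B and 0.34 in C. Only 0.8% of its exon bases overlapped a gene on the opposite strand.

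Dnmt3b (ENSMUSG00000027478, chr2:153649450-153687730, plus strand), the other de novo enzyme, varied least of the 9 genes between DMSO cultures. The DMSO cultures gave 341, 355 and 341 CPM, and the MB-3 cultures gave 425, 437 and 433 CPM. The groups did not overlap, and the gap between them exceeded the range within either group. The log2 fold change was 0.32 with a standard error of 0.053 (edgeR, adjusted p = 0.0358), and 0.32 with an adjusted p of 2.51e-06 in the blocked edgeR fit. The letters gave log2 ratios of 0.32, 0.30 and 0.34.

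In the main edgeR fit the 2 calls made without the block sat close to the threshold. DESeq2 without the block gave adjusted p of 0.000179 for Dnmt3a and 2.73e-06 for Dnmt3b. These were 0.00910 and 0.00718 in edgeR without the low-count filter, and 0.0239 for both in robust edgeR. Dnmt3a lost its call with upper-quartile normalization (edgeR, adjusted p = 0.0514) and with limma-voom (adjusted p = 0.0624), where Dnmt3b kept it. Without DMSO replicate A the edgeR adjusted p became 0.110 for Dnmt3a and 0.113 for Dnmt3b, without DMSO replicate C 0.164 and 0.149, without MB-3 replicate A 0.316 and 0.226, and without MB-3 replicate B 0.275 and 0.204. Without MB-3 replicate C, Dnmt3a stayed called at 0.0429 and Dnmt3b did not, at 0.0668 by edgeR, and without DMSO replicate B both were called, at 0.00665 and 0.00628. Over these 6 fits the log2 fold change ranged from 0.31 to 0.37 for Dnmt3a and from 0.31 to 0.34 for Dnmt3b, so the size of the rise moved little.

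Dnmt3l (ENSMUSG00000000730, chr10:78041947-78063622, plus strand) encodes the cofactor that stimulates both de novo enzymes. Its DMSO cultures read 264, 313 and 251 CPM, and its MB-3 cultures 290, 325 and 329 CPM. DMSO replicate B lay above MB-3 replicate A, so the groups overlapped, although each letter was higher with MB-3. The log2 fold change was 0.19 with a standard error of 0.081 (edgeR, adjusted p = 0.408). With the block it was 0.19 and the edgeR adjusted p was 0.0118. Replicate C gave a log2 ratio of 0.39 where A gave 0.14 and B 0.053. Without letter C the blocked value was 0.095 and was not called (edgeR, adjusted p = 0.298). Without DMSO replicate B the value from treatment alone was 0.29 and was called (edgeR, adjusted p = 0.0318), while without DMSO replicate C it was 0.13 and was not called (edgeR, adjusted p = 0.802). DESeq2 with the block gave an adjusted p of 0.332.

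The maintenance genes had smaller estimates. Dnmt1 (ENSMUSG00000004099, chr9:20907209-20959888, minus strand), the enzyme that copies marks, measured 322, 296 and 301 CPM in the DMSO cultures and 324, 333 and 328 CPM in the MB-3 cultures. The groups did not overlap, which held for 3 of 9 members (also Dnmt3a and Dnmt3b), all higher with MB-3, beside 15.6% of all genes and 8.23% in that direction. The cultures of letter A differed by only 0.010 on the log2 scale. The log2 fold change of 0.099, with a 95% interval from -0.021 to 0.22, was not called (edgeR, adjusted p = 0.544 and, with the block, 0.180). Uhrf1 (ENSMUSG00000001228, chr17:56303321-56323486, plus strand) read 218, 209 and 197 CPM in the DMSO cultures and 223, 217 and 215 CPM in the MB-3 cultures. Its groups overlapped, and the log2 fold change of 0.071, with an interval from -0.050 to 0.19, was not called (edgeR, adjusted p = 0.681 and, with the block, 0.362). Without DMSO replicate C the Uhrf1 value was 0.033, and without the other libraries in turn it lay between 0.054 and 0.11. A rise of Dnmt1 or Uhrf1 as large as that of Dnmt3b would lie outside both intervals.

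Within each library, reads of the de novo enzymes were set against reads of the maintenance enzyme. Dnmt3a and Dnmt3b together had 1.27, 1.44 and 1.35 reads per Dnmt1 read in the DMSO cultures, and 1.58, 1.58 and 1.57 in the MB-3 cultures. All MB-3 values lay above all DMSO values, and the spread was far smaller in MB-3, at an SD of 0.00446 against 0.0820. This ratio was chosen after the members' values had been seen and was not tested. Dnmt3l reads per Dnmt3a and Dnmt3b read averaged 0.666 ± 0.0617 in DMSO (SD, n = 3) and 0.608 ± 0.0377 with MB-3, and Uhrf1 reads per Dnmt1 read 0.678 ± 0.0252 and 0.665 ± 0.0211, with overlapping groups for both ratios.

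Tet1 (ENSMUSG00000047146, chr10:62804570-62908996, minus strand) encodes the main Tet dioxygenase of ES cells. The DMSO cultures held 421, 362 and 333 CPM, and the MB-3 cultures held 497, 416 and 446 CPM. MB-3 replicate B lay just below DMSO replicate A, so the groups overlapped, yet MB-3 was above DMSO in each letter, and replicate A was the highest of its group both times. The log2 fold change was 0.28 with a standard error of 0.086 (edgeR, adjusted p = 0.240), and 0.29 with an adjusted p of 5.04e-05 in the blocked edgeR fit. The blocked edgeR call held without each letter in turn, at adjusted p of 1.31e-05 without A, 0.00104 without B and 0.000367 without C.

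Tet2 (ENSMUSG00000040943, chr3:133463679-133545139, minus strand), a dioxygenase of the same family, likewise stood highest in replicate A. It measured 76.9, 64.4 and 54.6 CPM in the DMSO cultures and 85.2, 71.8 and 68.2 CPM in the MB-3 cultures. Replicate A was the highest and replicate C the lowest in both groups, and the groups overlapped. The log2 fold change of 0.20 had a standard error of 0.11 (edgeR, adjusted p = 0.524), and the blocked value of 0.21 was called (edgeR, adjusted p = 0.00729). Without letter C the blocked value was 0.15 and was no longer called (edgeR, adjusted p = 0.103). With treatment as the only term the value was 0.089 without DMSO replicate C, 0.10 without MB-3 replicate A and 0.34 without DMSO replicate A, and it was called in none of these. The spread between DMSO cultures, as a coefficient of variation, was 17.1% for Tet2, 12.0% for Tet1 and 11.9% for Dnmt3l, compared with 2.36% for Dnmt3b and 4.09% for Dnmt3a. Tet1 reads per Tet2 read were 5.48, 5.63 and 6.11 in the DMSO cultures and 5.83, 5.79 and 6.54 in the MB-3 cultures, with the groups overlapping.

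Tet3 (ENSMUSG00000034832, chr6:83362373-83459084, minus strand), the Tet gene known from the oocyte and zygote, was scarce. It read 7.14, 7.15 and 6.23 CPM in the DMSO cultures and 6.25, 7.33 and 6.18 CPM in the MB-3 cultures, from 265 to 359 counts a library. The groups overlapped fully, and the log2 fold change of -0.056, with an interval from -0.29 to 0.18, was not called (edgeR, adjusted p = 0.893 and, with the block, 0.805). Leaving out 1 library at a time gave values from -0.14 without MB-3 replicate B to -0.013 without MB-3 replicate C. The upper bound lies below the estimates for Dnmt3a, Dnmt3b and Tet1. A difference between genes in their response was not itself tested.

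**Figure D2:**
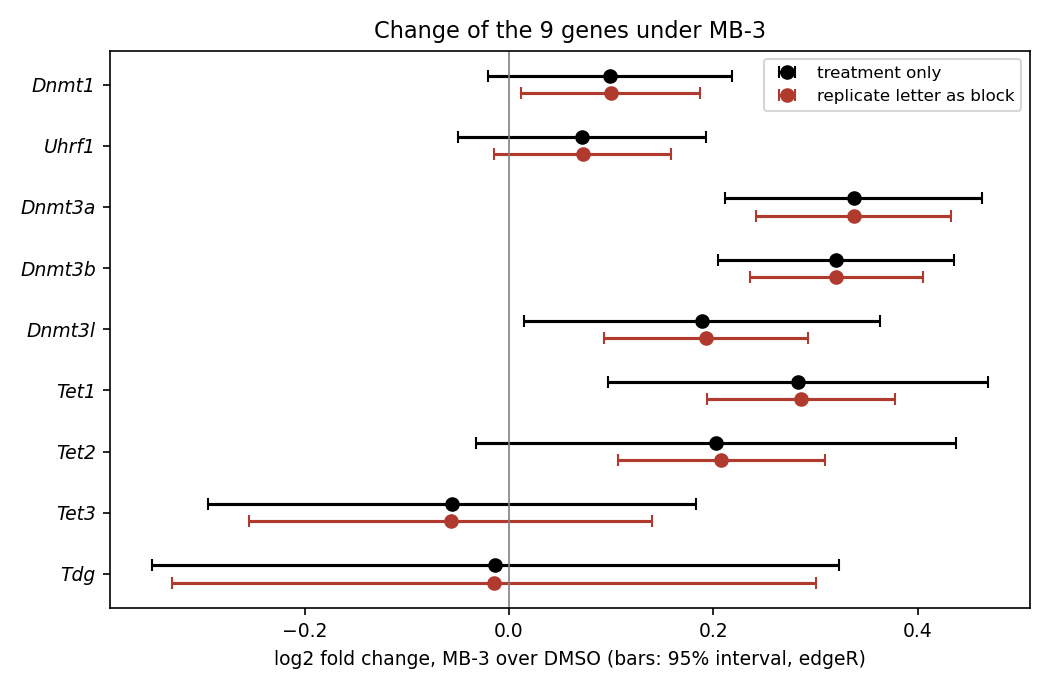
The log2 fold change of MB-3 over DMSO (x axis) is shown for each member with its 95% interval from edgeR, in black for treatment as the only term and in red for the fit with the replicate letter as a block. The estimates barely move between the fits, while the blocked intervals narrow most for Dnmt3l, Tet1 and Tet2 and lie above 0 for these and for Dnmt1, Dnmt3a and Dnmt3b. Dnmt1 was not called after adjustment over all genes.

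Tdg (ENSMUSG00000034674, chr10:82629828-82650799, plus strand) showed the fewest reads of the group. It had 2.60, 2.51 and 2.18 CPM in the DMSO cultures and 2.23, 2.32 and 2.68 CPM in the MB-3 cultures, which is 102 to 126 counts a library. Letters A and B were lower with MB-3 and letter C was higher, so the groups overlapped, and the log2 fold change of -0.013, with an interval from -0.35 to 0.32, was not called (edgeR, adjusted p = 0.984 and, with the block, 0.974). Of its exon bases, 6.83% overlap Glt8d2 on the other strand.

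The Tdg count is uncertain, because the gene has near-identical copies. Of the longest Tdg transcript, 86.4% aligned to 4 other places in GRCm38 at an identity of at least 95% over at least 300 bases, and 78.1% of its windows of 50 bases recurred exactly in one or more of them. The following stretch of 60 coding bases at chr10:82648628-82648687, plus strand, occurs unchanged in all 4 places, so a read from it does not name its gene.
Tdg, last coding exon: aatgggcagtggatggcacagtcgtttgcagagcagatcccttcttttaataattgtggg
Gm9855, a processed pseudogene on chromosome 10, was given 1880 to 2042 counts a library, Gm5597 on chromosome 7 was given 1256 to 1473, and Tdg-ps on chromosome 15 was given 61 to 87. The Tdg row thus held fewer counts than the rows of 2 of its own pseudogenes. The remaining copy lies within Lipo3 on chromosome 19, a gene of its own with 296 to 490 counts. How reads with several matches were handled is not given in the sources used here. With the counts of the 3 pseudogenes added, Tdg stood at 71.6 ± 3.80 CPM in DMSO (SD, n = 3) and at 75.9 ± 2.04 CPM with MB-3, and the log2 fold change of 0.084 was not called (edgeR, adjusted p = 0.637 and, with the block, 0.345).

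Uhrf1 was the other member with a copy. The processed pseudogene Gm5648 on chromosome X covers 71.9% of the Uhrf1 transcript, and 28.8% of the transcript's windows of 50 bases recur there. It held 4348 to 5173 counts a library. Added to Uhrf1, the sum was 307 ± 14.4 CPM in DMSO (SD, n = 3) and 321 ± 5.72 CPM with MB-3, with a log2 fold change of 0.066 that was not called (edgeR, adjusted p = 0.707 and, with the block, 0.397). The other 7 members had no such copy at these limits.

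**Figure D3:**
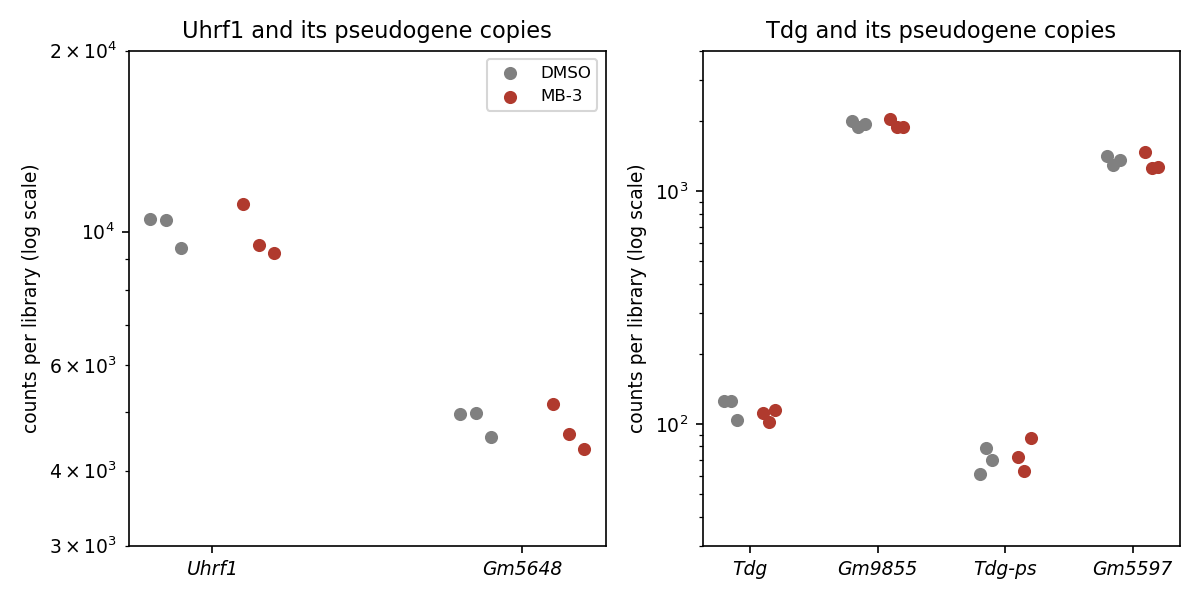
Counts per library (y axis, log scale) are plotted for Uhrf1 and Tdg and for their annotated pseudogene copies, in grey for the 3 DMSO cultures and in red for the 3 MB-3 cultures. Tdg, at 102 to 126 counts, lies below Gm9855 and Gm5597, which exceed 1000 in every library, and no copy separates the treatments.

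Levels were compared between genes per kilobase of annotated exon, first by each gene's own row. In DMSO, Dnmt3l was the most abundant at 92.4 ± 11.0 CPM per kb, followed by Dnmt3b at 67.7 ± 1.60, Uhrf1 at 48.8 ± 2.48, Dnmt1 at 41.5 ± 1.83 and Tet1 at 24.1 ± 2.90 (SD, n = 3). Dnmt3a at 4.11 ± 0.168 and Tet2 at 3.87 ± 0.661 CPM per kb formed a lower tier, and Tdg at 0.452 ± 0.0408 and Tet3 at 0.410 ± 0.0319 CPM per kb the lowest. By these rows the cultures of neighbours did not overlap, except for Dnmt3a with Tet2 and for Tdg with Tet3. The places of Uhrf1 and Tdg depend on how reads of their copies are assigned. With the pseudogene counts added, and over the same exon length, Uhrf1 stood at 72.1 ± 3.39 CPM per kb in DMSO (SD, n = 3), above the mean of Dnmt3b with overlapping cultures, and Tdg at 13.3 ± 0.707 CPM per kb, between Tet1 and Dnmt3a without overlap. Per kilobase of the longest transcript, Dnmt3a (7.06 CPM per kb) and Tet2 (7.11 CPM per kb) changed places. In MB-3, Dnmt3l reached 105 ± 7.21 CPM per kb and Dnmt3b 84.5 ± 1.19.

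Genes with the most similar profile over the 6 libraries were sought among the 10164 genes with a mean of at least 10 CPM, by the root mean square difference of centred log2(CPM + 0.1). For Dnmt3a they were Gclm (difference 0.027 on the log2 scale), Myrf (0.036), Jade3 (0.042), Dnmt3b (0.044) and Cgnl1 (0.045). Dnmt3b was closest to Gm6665 (0.038), Dnmt3c (0.039), Jade3 (0.041), Gclm (0.041) and Gmppb (0.041). Dnmt3c, a rodent gene beside Dnmt3b that arose as its duplicate, had a mean of 26.4 CPM and a log2 fold change of 0.31. Whether reads of Dnmt3b were counted for Dnmt3c, or the reverse, was not tested. Tet1 was most like Zfp462 (0.028), Wdr44 (0.044), Chd9 (0.048), Shroom4 (0.050) and Qser1 (0.051). Qser1, known as a protein that works with Tet1, had a log2 fold change of 0.28 at a mean of 197 CPM. Among the genes compared here, a log2 fold change at least as high as that of Dnmt3a was found for 0.482%, as that of Dnmt3b for 0.61%, and as that of Tet1 for 0.925%.

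Other genes of the pathway were taken from 5 lists. These were named for partners of maintenance methylation, base excision repair after Tet, methyl-CpG readers, histone and KRAB partners of methylation, and regulators and cofactors. Of their 48 genes, 48 were tested and edgeR called 0 with treatment as the only term, as did DESeq2 and limma-voom, while 11 of them, and 10.9% of all genes tested, had an unadjusted edgeR p below 0.05. With the block, edgeR called 10, of which 7 were higher and 3 lower, against the 7.12% of all genes given above. The blocked count was 6 without letter A (4.71% of all genes), 5 without B (4.51%), 5 without C (5.15%) and 5 with DESeq2 (3.79%). With treatment as the only term but without DMSO replicate B, edgeR called 4 of the 48, Gadd45g higher and Uhrf2, Gadd45b and Nsd2 lower, beside 2.55% of all genes, and among the germline genes and markers it then called Mael, Utf1, Sall4, Otx2, Lef1, Fgf5, Col1a1 and Col1a2 as well. The median log2 fold change of the 48 pathway genes, with treatment as the only term and all libraries, was 0.037.

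In the maintenance list 1 of 6 genes was called with the block, beside 7.12% of all genes. Uhrf2, the relative of Uhrf1, went from 49.6, 43.2 and 54.4 CPM in the DMSO cultures to 44.5, 39.8 and 43.4 CPM in the MB-3 cultures. It was lower in each letter, at a blocked log2 fold change of -0.20 (edgeR, adjusted p = 0.0165), in the opposite direction to the estimate for Uhrf1. The call held without letter A or B and was lost without letter C (-0.14, edgeR adjusted p = 0.224) and with the block in DESeq2 (adjusted p = 0.0773). Usp7, Pcna and Hells, which stabilise Dnmt1, load it at replication forks and remodel nucleosomes, had log2 fold changes of 0.086, -0.054 and 0.031 and were not called.

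Among 14 repair genes, 3 were called with the block, beside 7.12% of all genes. The count was 3 without letter A (4.71% of all genes), 2 without B (4.51%) and 1 without C (5.15%). With the block in DESeq2 it was 1 (3.79%). Gadd45g, a stress-response gene linked to demethylation, rose from 3.97, 4.38 and 3.77 CPM to 5.14, 6.26 and 5.92 CPM, without overlap, at a blocked log2 fold change of 0.51 (edgeR, adjusted p = 0.00286). Its relative Gadd45b fell from 13.1, 12.3 and 16.1 CPM to 11.5, 10.1 and 10.9 CPM, also without overlap (blocked log2 fold change -0.35, edgeR adjusted p = 0.00542). Parp1, which signals strand breaks, rose from 539 ± 17.2 to 596 ± 12.8 CPM (SD, n = 3) at a blocked log2 fold change of 0.15 (edgeR, adjusted p = 0.0314). DESeq2 with the block called neither Gadd45g (adjusted p = 0.0582) nor Gadd45b (0.0692). In edgeR with the block the Gadd45g call held without each letter, the Gadd45b call was lost without C (adjusted p = 0.151), and the Parp1 call, which DESeq2 also made, was lost without B (0.227) and C (0.127). The glycosylase genes Neil1 and Neil2 had log2 fold changes of -0.32 and 0.19 and were not called.

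Of 9 genes listed as methyl-CpG readers, 0 were called by edgeR in either fit, 0 by DESeq2 in either fit and 0 by limma-voom. The list name is only a label, and binding of methylated CG by each gene was not examined. In edgeR, 0.205% of all genes were called without the block and 7.12% with it. Without the block 0 of the 9 had an unadjusted edgeR p below 0.05, beside 10.9% of all genes. Their log2 fold changes ran from -0.15 for Mbd6 to 0.081 for Zbtb38, with Mbd3 at 0.072 and Mbd5 at 0.063.

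Of 10 histone and KRAB partners, 5 were called with the block, beside 7.12% of all genes. The count was 2 without letter A (4.71% of all genes), 1 without B (4.51%) and 3 without C (5.15%). With the block in DESeq2 it was 3 (3.79%). None of the 5 held in every one of these fits. Setdb1, the H3K9 methyltransferase recruited with Trim28, stood at 148, 142 and 136 CPM in DMSO and at 165, 157 and 156 CPM in the MB-3 cultures, without overlap, and rose in the blocked fit (log2 fold change 0.17, edgeR adjusted p = 0.0152). Ehmt1, another H3K9 methyltransferase gene, and Kdm2b, which binds unmethylated CG, rose by 0.17 and 0.19 in the same fit (edgeR, adjusted p = 0.0180 and 0.0188). Setd2, which sets the H3K36 mark that Dnmt3b reads, rose by 0.15 (edgeR, adjusted p = 0.0466). Nsd2, which sets a lower methylation state of the same residue, fell by 0.26 (edgeR, adjusted p = 0.00341), from 42.8 ± 4.87 to 35.7 ± 2.28 CPM (SD, n = 3).

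Of 9 regulators and cofactors, Mat2a was the 1 gene called with the block, beside 7.12% of all genes. Mat2a, of whose exon bases 11.3% overlap Particl on the other strand, makes S-adenosylmethionine, the methyl donor of these enzymes, and went from 499 ± 42.6 to 567 ± 43.3 CPM (SD, n = 3) at a blocked log2 fold change of 0.18 (edgeR, adjusted p = 0.00967). Without letter A the call was lost (0.13, edgeR adjusted p = 0.233), and it held without B, without C and with DESeq2. Cxxc4 had the largest log2 fold change of the list (0.23) and, like Idh2 (-0.11) and Mat2b (-0.065), was not called.

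Germline genes known to be subject to promoter methylation were listed as a readout, and 7 of 8 were tested, Asz1 being near 0. They were not all silent in these cells: Mael, Sycp3, Ddx4 and Dazl averaged 14.1, 13.4, 12.4 and 4.96 CPM in DMSO. Of the Sycp3 exon bases 52.2% overlap Chpt1 on the opposite strand, and as the use of strand in counting is not given, reads of both genes cannot be told apart there. Without the block edgeR called 0 (0.205% of all genes), limma-voom 0 (0.0899%) and DESeq2 1, which was higher (1.11%). An unadjusted edgeR p below 0.05 was found for 2, beside 10.9% of all genes. The blocked edgeR fit called 2 of the 7, beside 7.12% of all genes. With the block edgeR called Mael, which rose from 14.1 ± 1.30 to 18.5 ± 1.14 CPM (SD, n = 3; log2 fold change 0.39, adjusted p = 0.000465), and Ddx4, which rose from 12.4 ± 0.357 to 14.7 ± 1.16 CPM (SD, n = 3; log2 fold change 0.24, adjusted p = 0.0367). The Mael call held without each letter and with the block in DESeq2, while the Ddx4 call was lost in all of these fits. Tex101 (-0.54), Slc25a31 (0.45) and Taf7l (-0.29), all below 1 CPM on average, were not called.

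**Figure D4:**
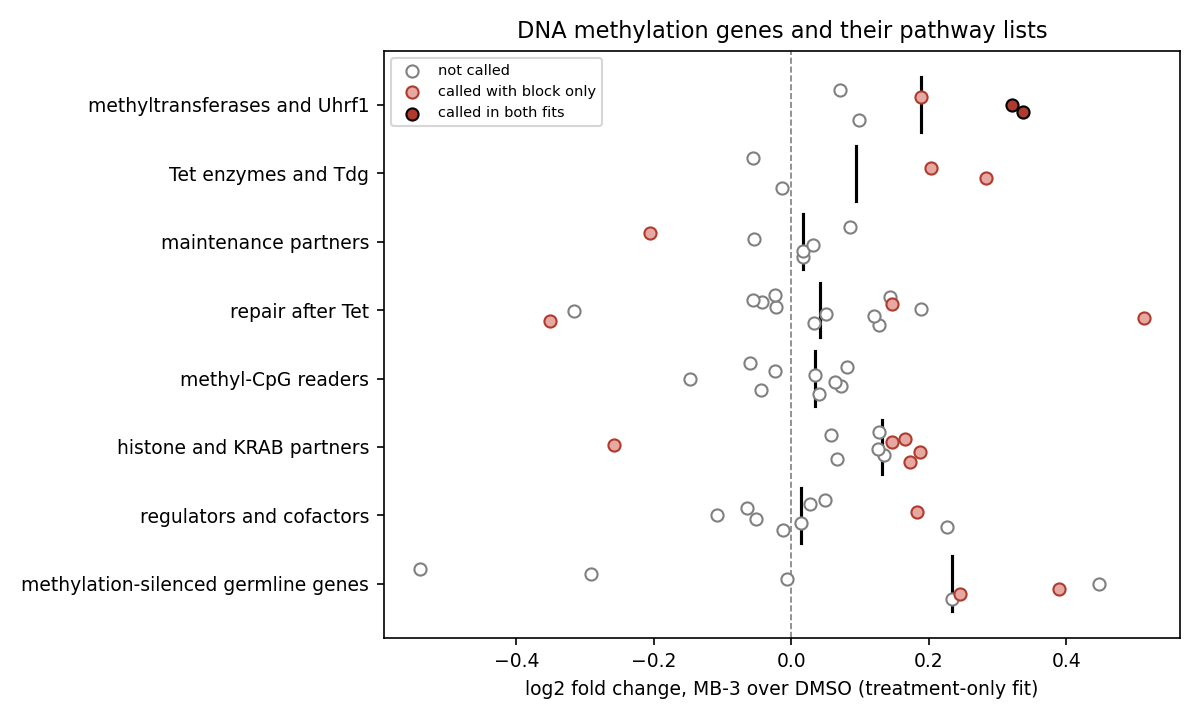
Each circle is a gene, placed by its log2 fold change of MB-3 over DMSO (x axis) in its list (y axis). Dark red marks genes called by edgeR in both fits, pale red those called with the block only and white those not called, while black ticks are list medians and the dashed line is the median of all genes tested. The 2 dark circles are Dnmt3a and Dnmt3b.

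Markers of other cell states were read beside these results. The 6 primed pluripotency markers summed to 147, 146 and 181 CPM in the DMSO cultures and 159, 152 and 178 CPM in MB-3. Cldn6 was the most abundant. In edgeR 0 of 6 were called with treatment as the only term and 4 of 6 with the block, beside 0.205% and 7.12% of all genes. The blocked fit called Otx2 (0.30) and Lef1 (0.60) higher, Fgf5 (-0.56) and Cldn6 (-0.17) lower, as blocked log2 fold changes. With treatment only, Otx2 was called by DESeq2 (adjusted p = 0.00184), by robust edgeR (0.0385) and by edgeR without the low-count filter (0.0263). Cldn6 was lost with the block in DESeq2 (adjusted p = 0.0808) and without letter A or C. Lef1 was lost without letter A, where its value was 0.35 (edgeR, adjusted p = 0.174). Sox3 was called lower in the blocked fit without A alone and Pou3f1 higher in that without C alone. Of the 10 ES cell markers, edgeR with the block called 2, Utf1 (0.28) and Sall4 (0.19), both higher. DESeq2 with the block called neither (adjusted p = 0.429 and 0.643). In letter B both were lower with MB-3, at log2 ratios of -0.044 and -0.095. Their blocked edgeR values were 0.20 and 0.16 without letter A, 0.44 and 0.33 without B, and 0.20 and 0.070 without C. The Utf1 call held in edgeR without each letter, while the Sall4 call was lost without A (edgeR, adjusted p = 0.103) and without C (0.530). The fit without C also called Dppa5a and Klf4, both lower by 0.19 (edgeR, adjusted p = 0.000790 and 0.0206), so that 1 ES cell marker was called higher and 2 lower there. The 8 fibroblast and feeder markers summed to 9.65, 8.05 and 10.8 CPM in DMSO and 6.75, 6.92 and 6.71 CPM in MB-3, with Thy1 the most abundant and Lum and Postn below 0.1 CPM on average in both groups. Col1a1 (1.05 ± 0.254 to 0.418 ± 0.166 CPM, SD, n = 3) and Col1a2 (1.87 ± 0.546 to 0.773 ± 0.278 CPM) were called lower by edgeR with the block, in full and without each letter. DESeq2 with the block called Col1a2 (adjusted p = 0.00497) and gave Col1a1 no adjusted p. The part of these shifts in the members' results was not tested.

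H3K9ac marks acetylated lysine on histone H3 at active promoters and enhancers, and is a product of the enzyme that MB-3 is used to inhibit. The deposited lists give positions on mm9 and no heights, and peaks were tied to genes through the authors' nearest-gene names, of which the first 1999 for each list were used here. By these names 4 members had peaks, and peaks of the other 5 were not analysed here. There are no separate replicates of these lists, so the peak comparisons have no test. The authors merged the duplicates because read numbers were relatively low. Whether depth differed between the DMSO and MB-3 lists was not tested.

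Tet1 had 13 DMSO peaks within 16.2 kb, from chr10:62345600 to chr10:62361786 on mm9, and 3 MB-3 peaks in the same stretch. No other window of that span that began at a DMSO peak held as many, and the median was 1. As the span was set by the outermost of the 13 peaks themselves, this comparison favours them and is not a test. Each MB-3 peak overlapped a different DMSO peak, so 3 of 13 DMSO peaks (23.1%) were met by an MB-3 peak, beside 35.8% of all 11724 DMSO peaks. The exact binomial interval of that share, 5.04% to 53.8%, takes the peaks as independent, which neighbours are not. Other rules moved the share at Tet1: 0% of the 13 were covered over at least 50% of their length (23.0% of all DMSO peaks), 46.2% had an MB-3 peak within 1000 bp (48.4% of all), and 42.9% of the 7 at least 500 bp wide were met (55.8% of all). The 3 met peaks, 2759, 1934 and 866 bp wide, were the widest at Tet1, and the 10 others measured 308 to 660 bp. Peak length at Tet1 went from 9995 bp in DMSO to 2438 bp in MB-3, 75.6% less, against 68.5% less over both whole lists. Tet1 RNA, the same gene's transcript level, was higher with MB-3 in each letter.

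**Figure D5:**
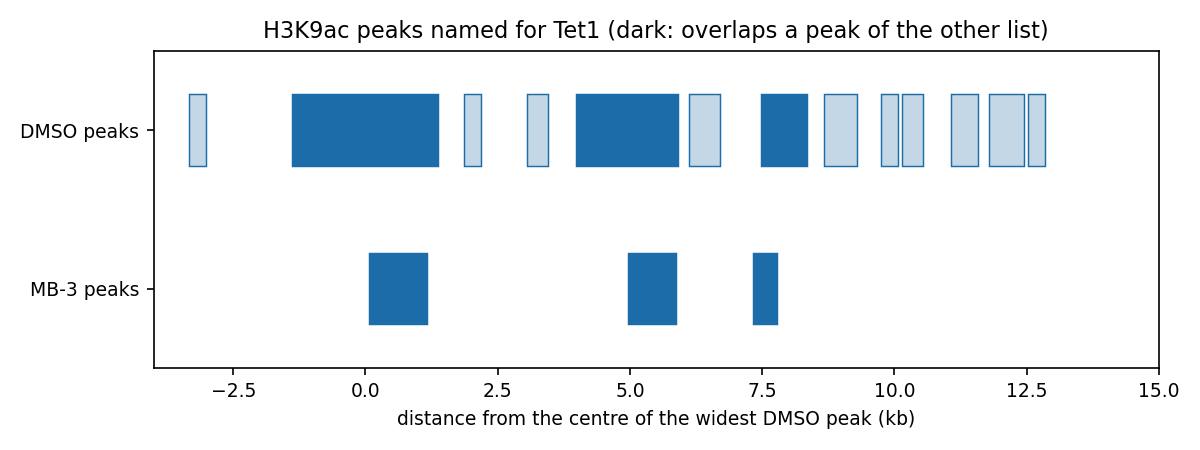
H3K9ac peaks named for Tet1 are drawn to scale for DMSO (upper row) and MB-3 (lower row) by their distance in kb from the centre of the widest DMSO peak (x axis). Dark peaks overlap a peak of the other list, and the 3 MB-3 peaks fall within the widest blocks of DMSO peaks or across their edge.

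Tdg had 2 DMSO peaks, at chr10:82092060-82092407 and chr10:82092759-82093488 on mm9, of 348 and 730 bp, and no MB-3 peak by that name, the nearest MB-3 peak being 913800 bp away. Uhrf1 had an MB-3 peak at chr17:56442928-56443292 of 365 bp, which lay inside a DMSO peak of 712 bp at chr17:56442791-56443502. A further DMSO peak of 840 bp at chr17:56443791-56444630 met no MB-3 peak. Dnmt3l had an MB-3 peak of 376 bp at chr10:77500519-77500894, with the nearest DMSO peak 10794 bp away, and so is among the 139 of 4673 MB-3 peaks that overlapped no DMSO peak. No DMSO peak carried its name in the part used here.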

How the data were processed

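RNA from 6 TNGA cultures was sequenced. The authors aligned reads to mm10 with Bowtie and deposited raw counts per Ensembl gene, while versions, annotation and use of strand are not given in the sources used here. The authors also deposited H3K9ac peak positions on mm9, called with MACS2 against input on merged duplicates. Of 30677 genes, 30540 were paired with a symbol in GENCODE M21, and 0 count columns were left unused. Genes kept by filterByExpr were TMM-normalized and tested with edgeR 4.0.16 (glmQLFit, glmQLFTest) in R 4.3.3, with Benjamini-Hochberg adjustment over all 20027 tested genes at 0.05. The treatment-only edgeR fit was run on simulated counts with no differences between letters. The blocked fit was not run on simulated counts.

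Replicate letters, which the labels give, were taken as pairs because deviations from the group means correlated over genes within a letter. The correlations were 0.115 (A), 0.287 (B) and 0.232 (C). Those between letters were negative, but centring on the group mean makes them so on average when same-letter values are positive. They add nothing to the case for pairs. Blocked values stand beside the unblocked ones. Copies were found with blastn 2.17.0. Depth and replicate spread together gave a standard error of 0.05 to 0.16 for a member's log2 fold change. Peaks were shared at an overlap of 1 bp. Alternatives were other normalizations, filters, DESeq2 1.42.0, limma-voom (limma 3.58.1), robust edgeR and left-out libraries. The fits without a letter and with pseudogene counts were chosen after seeing the data. All 9 members are named, with called genes and otherwise the 4 largest log2 fold changes of each pathway list. The members and lists were chosen with earlier results of these data known.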

Additional observations from a re-analysis of the deposited data

How the results depend on the processing

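Members called, 2 with treatment only, were 1 under upper-quartile normalization, 1 with limma-voom, 5 with the replicate block, 4 with the block in DESeq2, 5 with the block without letter A, 5 without B and 0 to 3 when 1 library was left out. The 0 counts arose without DMSO replicate A, DMSO replicate C, MB-3 replicate A or MB-3 replicate B, with 5, 3, 4 and 3 members at an unadjusted edgeR p below 0.05, beside 12.1%, 6.93%, 7.09% and 8.4% of all genes. Of the 5 blocked calls, 3 remained in number without letter C, and 2 members were called with no block. Genes called among all tested, 41 with treatment only, were 25 with upper-quartile normalization, 194 with no filter, 192 with DESeq2, 18 with limma-voom, 66 with robust edgeR, 1425 with the replicate block, 626 with the block in DESeq2, 939, 912 and 1037 with the block without letters A, B and C, and 0 to 520 with 1 library left out. Both counts of 0, without MB-3 replicate A and without MB-3 replicate B, came with 1440 and 1716 genes at an unadjusted edgeR p below 0.05. The causes were not tested. Every alternative gave the 7 members from Dnmt1 to Tet2 a positive log2 fold change. Tet3 turned to 0.011 with the block without letter A. Tdg turned to 0.089 and 0.032 with the block without letters A and B and to 0.084 with pseudogene counts added, and ranged from -0.095 to 0.042 with 1 library left out (above 0 without DMSO replicates A or B or MB-3 replicates A or B). Of the Tet1 DMSO peaks, 23.1% of which an MB-3 peak met, 0% were covered over at least 50% of their length, 46.2% had an MB-3 peak within 1000 bp and 42.9% were met among those at least 500 bp wide. Per kilobase of the longest transcript, DMSO levels were 152 CPM for Dnmt3l, 80.0 for Dnmt3b, 57.9 for Uhrf1, 52.2 for Dnmt1, 7.06 for Dnmt3a, 7.11 for Tet2, 0.694 for Tdg and 0.627 for Tet3. With pseudogene counts added, Uhrf1 stood at 72.1 and Tdg at 13.3 CPM per kb of exon in DMSO. At 102 to 126 counts a library for Tdg and 265 to 359 for Tet3, the 95% interval of the fold ran from 0.785 to 1.25 and from 0.815 to 1.13.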
